A study of Mus musculus with 6 samples.

Results

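In an ATAC-seq peak table from mouse epididymal white adipose tissue, 14 of 104 intervals carried the name of 1 of 9 known protein-coding genes, namely Aida, Cdk8, Fbxw4, Filip1l, Mroh2a, Muc3, P4ha2, Tmem125 and Tmem267. Every interval with one of these names was kept, and together they held 64 of the table's 519 peaks. Tmem267 named 5 intervals, P4ha2 named 2 and each of the other genes named 1. Where a gene had several intervals they are numbered by position along the chromosome. The intervals were chosen by a peak having been called there and by its gene name, with the fold values known, so the presence and height of a peak are given as description. RefSeq lists all 9 genes as protein-coding, and 6 further protein-coding names in the table (E030030I06Rik, Sfi1, Eif4enif1, D430019H16Rik, Gm9758 and Gm17019) are not treated here.

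ATAC-seq marks open chromatin by letting a transposase cut accessible DNA and insert sequencing adapters, so a peak is a place where many inserted fragments overlap. The 6 libraries came from 3 flox controls, in which Armc5 is flanked by recombination sites and intact, and from 3 samples with Armc5 deleted in adipocytes (Armc5 KO). The sources used here do not give the Cre driver, strain, sex or age, and they do not say if each library is a different animal. A p-value here therefore sets a difference against library-to-library spread that could be technical only. The tissue also holds other cell types, and in such bulk samples fewer cells of a type and less open chromatin per cell cannot be told apart. Neither the tissue nor the deletion has a check in these peaks: 0 of 17 cell type markers, 7 of them adipocyte genes such as Adipoq and Plin1, and 0 of 14 genes of the SREBF1 and desaturation list, Armc5 included, named an interval. Flox control 3 differed from all other libraries, with peaks at 64 of the 104 intervals against 75 to 97 elsewhere, so results that rest on it are also given without it.

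The 9 genes do not form a pathway. CDK8 is the kinase of the Mediator complex and is known from mouse liver to mark nuclear SREBF1 for degradation. AIDA is known from mouse intestine as a factor in the degradation of lipid synthesis enzymes at the endoplasmic reticulum. P4HA2 is a catalytic subunit of a collagen prolyl hydroxylase, FILIP1L, named for its likeness to a filamin-interacting protein, is known to restrain cell migration, and FBXW4 is an F-box protein whose locus is disrupted in the mouse limb mutant dactylaplasia. MUC3 is a membrane mucin of the intestine, and MROH2A belongs to a family of proteins with HEAT repeats.

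The gene names did not always say where the intervals lay. In the reference (RefSeq, GRCm38.p6, with the coordinates of mm10), 10 of the 14 intervals lay inside the gene that named them and 4 lay outside it. No interval, 0 of 14, touched a reference start window of any gene, taken as 250 bases before to 50 after a start site. Fbxw4 had no such window, and Tmem267 interval 1 lay over the start that its deposited distance implies. The deposited annotation called 5 intervals intergenic, 6 intronic, 2 antisense promoter and 1 transcription end site. Of all 104 intervals, 35 were called intergenic and 22 carried a promoter annotation.

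The Filip1l interval (chr16:57391378-57391681) was in intron 1 of 4 of the annotated transcript, 38252 bases from the named start. That start matched the reference start within 1 base. The reference also places Cmss1 over the same bases, so the name is shared. The Cdk8 interval (chr5:146260985-146261348) was in intron 2 of 3 of a short transcript whose start, worked back from the deposited distance of 3373 bases, lay 26999 bases into the gene. From the reference start of Cdk8 the interval was 29917 bases away. The Fbxw4 interval (chr19:45650064-45650206) was in intron 1 of 8 of the gene, and yet was placed 9332 bases upstream of the start it was measured from. The Aida interval (chr1:183299133-183299574) was called a transcription end site, but lay inside Aida 2294 bases past its reference start, with the start window of Brox 1590 bases off.

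The Muc3 interval (chr5:137152227-137152470) was called intergenic, 3026 bases upstream of a start. The reference places it inside Muc3, 13697 bases downstream of the gene's start. The P4ha2 intervals (chr11:54139993-54140237 and chr11:54140515-54140634) were also called intergenic, and in the reference they did lie outside the gene, by 8325 and 8847 bases. Both were measured from a start that lay 26769 to 26770 bases into P4ha2, and a long non-coding RNA gene, Gm12223, was nearer, at 1631 and 1234 bases. The Tmem125 interval (chr4:118548472-118548725) lay 3552 bases outside its gene and 216 bases from the long non-coding RNA gene Gm40237. The Mroh2a interval (chr1:88224419-88224774) lay 2217 bases outside Mroh2a, between it and the Ugt1a gene cluster, which was 4417 bases away on the other side.

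The Tmem267 intervals sat at opposite ends of a gene of 122374 bases. Intervals 1 (chr13:119488764-119489006) and 2 (chr13:119489199-119489295) were annotated as an antisense promoter, with centres 412 and 774 bases past the nearest reference start. Their deposited distances were 25 and 387 bases, measured from a start 774 bases into the gene that lay inside interval 1. Intervals 3 (chr13:119597716-119598002), 4 (chr13:119601377-119601554) and 5 (chr13:119601921-119602173) began 108420 bases further on and lay in intron 2 of 2 of the annotated transcript. They were measured from a start 118564 to 118565 bases into the gene. Of the 14, interval 1 came closest to a reference start of its own gene. The 250 bases upstream of that reference start (RefSeq, GRCm38.p6, chr13:119488223-119488472, plus strand) are shown because they are the promoter sequence of a named gene nearest to a peak. CG pairs are in capitals. The long non-coding RNA gene 3110070M22Rik reaches into this stretch, and its start window is 130 bases from interval 1.
Tmem267: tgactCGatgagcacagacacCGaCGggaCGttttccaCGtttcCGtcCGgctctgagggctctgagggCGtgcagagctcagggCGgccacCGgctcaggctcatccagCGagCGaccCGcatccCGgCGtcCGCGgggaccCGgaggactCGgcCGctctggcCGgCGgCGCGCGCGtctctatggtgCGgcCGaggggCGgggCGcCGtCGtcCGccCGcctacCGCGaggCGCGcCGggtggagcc
The stretch held 39 CG pairs and 74.4% G and C, against medians of 6 pairs and 52.4% over 32851 start windows cut to the same length. It ended 291 bases before interval 1 began, so the peak of 4 libraries lay downstream of this CG-rich stretch and not on it. Of 5 motifs searched on both strands it held 0 matches: CACGTG was found in 6.02% of the windows, CCAAT in 33.8%, TCACNCCAC in 1.05%, TTGCNNAA in 9.56% and the DR1 motif of nuclear receptors in 0.0335%. No match says only that these letters are not in this window. Start windows were at hand for 8 of the 9 genes.

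Fold enrichment, the authors' own value for each peak over its library's local background, ranged from 5.55 to 56.1 over the 64 peaks. For comparison between intervals it is given with the fragment pileup, the whole number of fragments over the summit, solved from the fold and the p-value of each peak. The solution gives the number only, and that it counts fragments is an assumption. At these intervals the pileup ranged from 6 to 386 fragments. The 14 intervals had a median mean fold of 11.4 and a median width of 249 bases, beside 10.7 and 217 bases for the 90 other intervals. Their median mean pileup was lower, at 24.2 fragments beside 32.3. The mean local background of the 14 ran from 0.142 to 4.19 fragments, and that of the other intervals from 0.048 to 135 fragments.

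**Figure D1:**
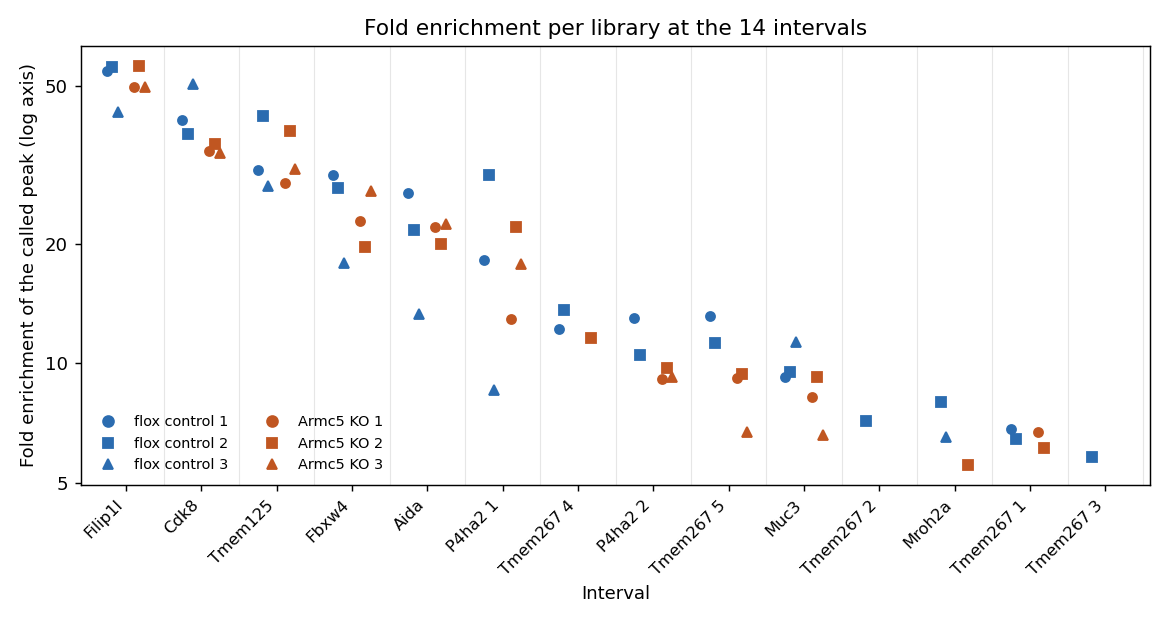
Fold enrichment of the called peak (log axis) in each of the 6 libraries at the 14 intervals, ordered by mean fold. Blue marks flox controls and orange Armc5 KO, with 1 symbol per replicate number and no symbol where no peak was called. Filip1l is highest in 5 libraries, and flox control 3 is the lowest library at Filip1l, Aida, P4ha2 interval 1, Fbxw4 and Tmem125 and the highest at Cdk8 and Muc3.

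Peaks were called in all 6 libraries at 7 intervals, those of Filip1l, Cdk8, Tmem125, Fbxw4, Aida and Muc3 and P4ha2 interval 1. Filip1l stood 6th by mean fold among the 55 intervals called in every library and Cdk8 stood 12th, while Muc3 stood 42nd. The order among the 7 varied little at its ends. Filip1l had the highest fold in 5 libraries and Cdk8 in flox control 3, and Muc3 had the lowest in 5 libraries and P4ha2 interval 1 in flox control 3.

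At Filip1l flox controls 1, 2 and 3 had folds of 54.3, 55.8 and 43.0, and Armc5 KO 1, 2 and 3 had 49.6, 56.1 and 49.7. The groups overlapped, with means of 51.0 ± 7.01 and 51.8 ± 3.72 (SD, n = 3 each). The pileups behind these values, 183 to 386 fragments, were the highest of the 7 intervals in 5 libraries, where relative counting error was therefore the smallest.

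At Tmem125 the fold was 30.7, 41.9 and 27.9 in flox controls, against 28.4, 38.4 and 30.9 in the Armc5 KO libraries, with means of 33.5 ± 7.40 and 32.6 ± 5.19 (SD, n = 3 each). Library 2 was the highest of each group, and the groups overlapped. At Fbxw4 it was 29.9, 27.7 and 17.9 in flox controls, against 22.8, 19.7 and 27.1 in the Armc5 KO libraries, with means of 25.2 ± 6.36 and 23.2 ± 3.72. Flox control 3 was the lowest library at both genes.

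At Aida the fold was 26.9, 21.6 and 13.3 in flox controls, against 22.0, 19.99 and 22.5 in the Armc5 KO libraries. Flox control 3 again stood below the others, with a pileup of 21 fragments against 51 to 67, and the group means were 20.6 ± 6.83 and 21.5 ± 1.32 (SD, n = 3 each). P4ha2 interval 1 varied most of the 7, by 3.48 times between its lowest and highest library. Its fold was 18.2, 29.9 and 8.58 in flox controls, against 12.9, 22.0 and 17.7 in the Armc5 KO libraries, with means of 18.9 ± 10.7 and 17.6 ± 4.55. The flox controls alone spanned more than the Armc5 KO libraries did.

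The groups separated at 2 of the 7 intervals, those of Cdk8 and Muc3, where every Armc5 KO fold lay below every flox control fold. That pattern was found at 5.45% of the 55 intervals called in all libraries, and the opposite one at 1.82%. The folds at Cdk8 were 40.9, 37.8 and 50.6 in flox controls, against 34.3, 35.6 and 33.8 in the Armc5 KO libraries, with means of 43.1 ± 6.65 and 34.6 ± 0.898 (SD, n = 3 each). Those at Muc3 were 9.24, 9.51 and 11.3 against 8.21, 9.22 and 6.59, with means of 10.01 ± 1.11 and 8.01 ± 1.33. At Muc3 the gap between the groups was small, since flox control 1 and Armc5 KO 2 differed by little. Flox control 3 was the highest library at both genes.

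Neither difference passed the test. Fold was compared on the log2(fold + 1) scale with limma over the 55 intervals, which understates differences of low folds, and 0% of the 55 had a Benjamini-Hochberg adjusted p under 0.05 (0 calls, and 1 interval, which was no member, at an unadjusted p under 0.05). The log2 difference, Armc5 KO minus flox control, was -0.30 at Cdk8 (SE 0.14, 95% interval -0.63 to 0.03, limma adjusted p = 0.949). It was -0.30 at Muc3 (SE 0.18, 95% interval -0.71 to 0.12, limma adjusted p = 0.949). The other 5 differences ran from -0.09 at Fbxw4 to 0.11 at Aida, with limma adjusted p of 0.949 to 0.966. Their 95% intervals reached from -0.27 to 0.33 at Filip1l, the narrowest, and from -0.96 to 1.01 at P4ha2 interval 1, the widest. Differences within those intervals could not be told from 0 with 3 libraries a group.

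**Figure D2:**
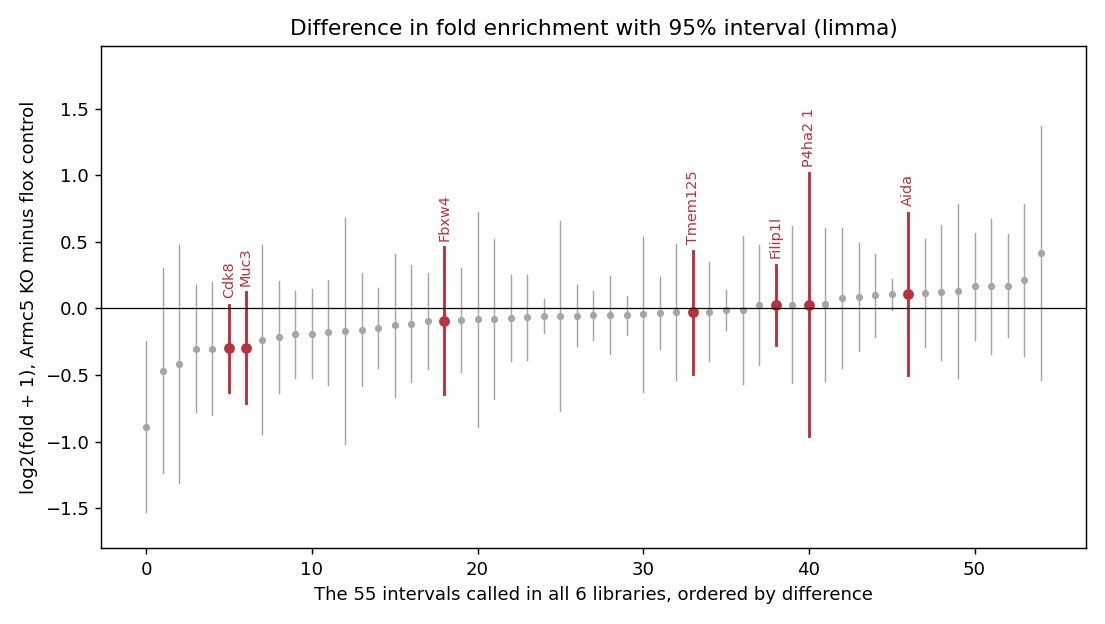
Difference in log2(fold + 1), Armc5 KO minus flox control, with its 95% interval from limma, for the 55 intervals called in all 6 libraries, ordered by size. The 7 intervals of the named genes are in red and the rest in grey; all 7 red intervals include 0, and Cdk8 and Muc3 sit at -0.30.

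Of the 7 differences, 4 were below 0 and the median was -0.03, beside 37 of 55 and a median of -0.05 over all intervals tested. These tallies moved in both directions with the libraries and the scale. Without flox control 3, all 7 were below 0 with a median of -0.18, as were 46 of 55 with a median of -0.09. Without flox control 2, 3 of the 7 were below 0 with a median of 0.095, beside 26 of 55 and a median of 0.042. With the ratio of pileup to local background, 2 of the 7 and 25 of the 55 were below 0, with medians of 0.060 and 0.015. With pileup centred on the library median, 2 of the 7 and 22 of the 55 were below 0, with medians of 0.18 and 0.074. No direction for the 7 intervals can be read from them. Without flox control 3 the difference at Cdk8 was -0.18 (limma adjusted p = 0.337) and that at Muc3 -0.21 (limma adjusted p = 0.780).

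The separation at Cdk8 and Muc3 was also looked at in the summit pileups. At Cdk8 these were 208, 229 and 271 fragments in flox controls, against 139, 165 and 130 in the Armc5 KO libraries. Median pileup over the 55 intervals was 85, 90 and 58 in the flox controls and 56, 74 and 56 in Armc5 KO. Divided by these medians, Cdk8 stood at 2.45, 2.54 and 4.67 in flox controls, against 2.48, 2.23 and 2.32 in the Armc5 KO libraries. On that scale the groups overlapped, and flox control 3 alone lay apart.

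Divided by the local background instead, Cdk8 gave 50.7, 45.1 and 61.9 in flox controls, against 45.1, 44.99 and 45.2 in the Armc5 KO libraries, so the 3 Armc5 KO libraries and flox control 2 were nearly level. The log2 difference of that ratio was -0.21 (limma adjusted p = 0.713).

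At Muc3 the pileups were 10, 10 and 12 fragments in flox controls, against 8, 10 and 6 in the Armc5 KO libraries. The extremes carry exact Poisson 95% intervals of 6.20 to 21.0 for 12 fragments and 2.202 to 13.1 for 6, which overlap and cover counting error only. Divided by the library medians, the pileups were 0.118, 0.111 and 0.207 in flox controls, against 0.143, 0.135 and 0.107 in Armc5 KO. On that scale the groups overlapped. The local background was as low as 0.062 fragments, so the 1 that the peak caller adds to both terms makes up most of the divisor. With the ratio of pileup to background the direction turned, to a log2 difference of 0.22 (limma adjusted p = 0.713).

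**Figure D3:**
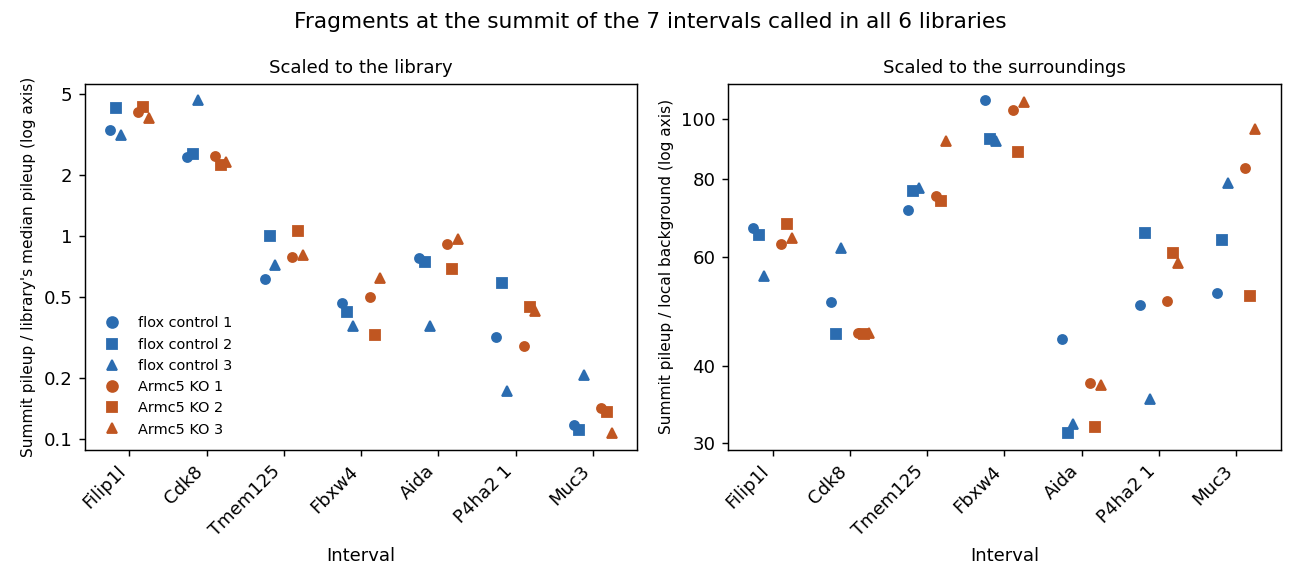
Fragments at the summit of the 7 intervals called in all 6 libraries, divided by the library's median summit pileup over 55 intervals (left) or by the local background (right), both on log axes, with 1 symbol per library. Flox control 3 lies apart at Cdk8 on the left (4.67 against 2.23 to 2.54), and at Muc3 the groups overlap on the left and on the right.

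The remaining 7 intervals lacked a peak in at least 1 library, and 12 of the 14 (85.7%) had a peak in both groups, near the 88.9% of the 90 other intervals. Of 42 possible peaks per group, the flox controls had 33 and Armc5 KO had 31. By library, flox controls 1, 2 and 3 had a peak at 11, 14 and 8 of the 14 intervals, while Armc5 KO 1, 2 and 3 had one at 10, 12 and 9. Flox control 2 and Armc5 KO 2, which also had the highest median pileup of their groups, had the most.

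P4ha2 interval 2, 277 bases past interval 1, was called in every library but flox control 3. Its fold was 13.0 and 10.5 in flox controls 1 and 2 and 9.13, 9.72 and 9.23 in Armc5 KO 1, 2 and 3. The called Armc5 KO folds lay below both called flox folds, but flox control 3, in which no peak passed, has no value in that comparison. Among the 84 intervals called in at least 2 libraries of each group, 13.1% were ordered in this way. The 84 include the 55 called in all libraries, where the share was 5.45%. It was therefore higher among those that, like this one, lacked a library. The groups overlapped in the ratio of pileup to local background, at 35.3 and 22.3 against 35.0, 25.8 and 29.3, and in pileup over the library median. A limma fit over these 84 intervals, which leaves out the libraries with no peak, called 0%. At an unadjusted p under 0.05 it had 3 (3.57%), Tmem267 interval 5 among them. For P4ha2 interval 2 the log2 difference was -0.29 (95% interval -0.69 to 0.11, limma adjusted p = 0.935, flox control 3 left out). Its peaks were 89 to 114 bases wide, and the narrowest peak called anywhere in flox control 3 was 112 bases wide, against 86 to 88 in the other libraries. The part of that width in the missing peak was not tested.

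The 2 P4ha2 intervals shared their background within 4.15e-06 fragments in each of 5 libraries, so they were scored against a common surrounding. Against it, interval 1 had the higher fold in every library where both were called.

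None of the 5 Tmem267 intervals had a peak in flox control 3, and Armc5 KO 3 had only interval 5. Interval 5 was the most widely called, with folds of 13.2 and 11.3 in flox controls 1 and 2 and 9.16, 9.41 and 6.71 in Armc5 KO 1, 2 and 3. The called folds were ordered as at P4ha2 interval 2, again with no value for flox control 3, while the weakest Armc5 KO peak passed and was kept. The log2 difference between the called peaks was -0.50 (SE 0.20, 95% interval -0.973 to -0.019). In the limma fit over 84 intervals its unadjusted p was 0.0436 and its adjusted p was 0.935, so it did not pass adjustment. None of these values takes account of the missing flox peak. Pileups were 27 and 32 fragments against 16, 21 and 10, in libraries whose median pileups were 85 and 90 against 56, 74 and 56. Divided by these medians they were 0.318 and 0.356 against 0.286, 0.284 and 0.179, still apart. Divided by the local background they were 23.9 and 16.6 against 18.7, 15.7 and 15.6, so on that scale the groups overlapped.

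Interval 4, 366 bases before interval 5, had a fold of 12.2 in flox control 1, of 13.6 in flox control 2 and of 11.5 in Armc5 KO 2. Intervals 4 and 5 shared their background within 1.11e-05 fragments in 3 libraries. No peak was called at interval 4 in Armc5 KO 1 or 3, and a single library of that group allows no test.

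Tmem267 interval 1, near the start of the gene, was weaker, with folds of 6.81 and 6.43 in flox controls 1 and 2 and 6.71 and 6.12 in Armc5 KO 1 and 2. The groups overlapped, and the log2 difference was -0.04 (95% interval -0.39 to 0.31, limma adjusted p = 0.985, libraries 3 left out). These peaks rested on 7 to 8 fragments over a mean background of 0.305 fragments. In the same 4 libraries the mean background at interval 5 was 1.31 fragments, so the far end of the gene lay in more densely covered surroundings.

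Intervals 2 and 3 of Tmem267 were each called in flox control 2 alone, with folds of 7.14 and 5.80 and pileups of 9 and 16 fragments. They were the only intervals of the 14 found in a single group, a pattern that 8.65% of all 104 intervals showed for flox controls. Without flox control 2 neither would be listed, and without Armc5 KO 2 the count of flox-only intervals among the 14 would be 4.

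At Mroh2a the fold was 7.99 in flox control 2, 6.53 in flox control 3 and 5.55 in Armc5 KO 2. The pileups were 21, 9 and 12 fragments. It was the only interval of the 14 with a peak in flox control 3 and none in flox control 1, and its single Armc5 KO value has no replicate.

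The intervals differed in how closely the libraries placed the summit. At Tmem125 the 6 summits fell within 3 bases of each other, at Fbxw4 within 17, at P4ha2 interval 1 within 31 and at Filip1l within 34. Peak widths at Filip1l ran from 283 to 297 bases over the 6 libraries. At Muc3, which had the lowest pileup of the 7 in every library but flox control 3, the summits spread over 81 bases. They spread over 66 bases at Aida, with pileups of 21 to 67 fragments, and over 83 at Cdk8, with 130 to 271.

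At Cdk8 the summits of 5 libraries fell between 146261167 and 146261171. In flox control 3 the summit was at 146261088, so its high fold was read from another base than the rest. At Tmem267 interval 1 the summit was at 119488894 for flox control 1 and 119488911 for Armc5 KO 1. For flox control 2 it was at 119488778 and for Armc5 KO 2 at 119488786, so these 4 summits lay closer within a replicate number than within a group. They rest on pileups of only 7 to 8 fragments, and the numbers have no stated origin, so no effect of replicate number can be read from them. At Mroh2a the 3 summits spread over 171 bases of an interval of 356.

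**Figure D4:**
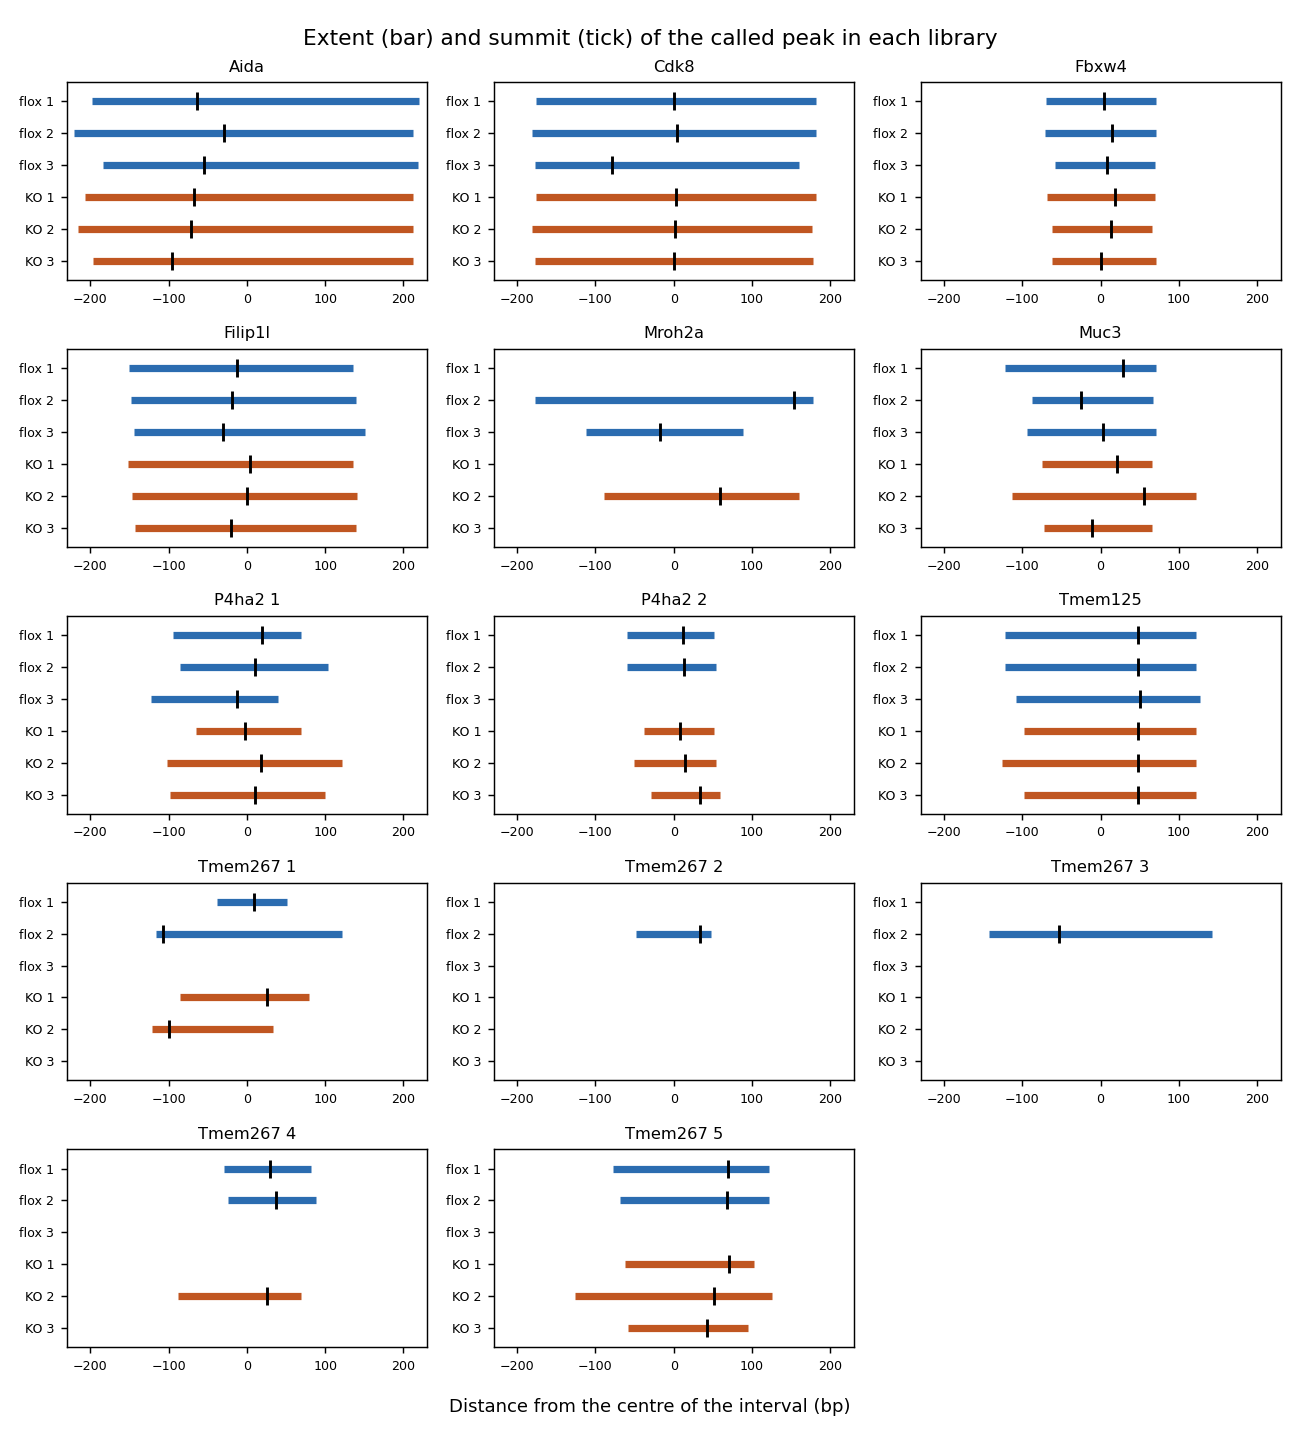
Extent (bar) and summit (black tick) of the called peak in each library, as distance in bases from the centre of the interval, 1 panel for each of the 14 intervals; blue is flox control and orange Armc5 KO, and an empty row has no peak. Summits align within 3 bases at Tmem125 and spread over 171 bases at Mroh2a, and flox control 3 has an offset summit at Cdk8 and no peak at any Tmem267 interval.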

How the data were processed

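The authors deposited 1 table of peaks called in each of 6 ATAC-seq libraries and joined into intervals. Per the file headers it gives, for each library, the fold (a ratio over local background), the −log10 p-value and q-value, the start, end and summit of each peak. The tools named, per the submitters' processing notes, are MACS2 2.2.7.1, Bowtie2 2.3.5.1, cutadapt 4.0 and deepTools 3.5.1, with no role stated, and the build is mm10. How insertion offsets, duplicates and mitochondrial reads were handled is not stated in the sources at hand. Folds were set within each library and not scaled between libraries, so depth can move them. Read totals are unknown.

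Columns headed WT were assigned to the flox controls, the only other group that titles name. Starts were taken as counted from 0 and are printed counted from 1. The summit pileup and background were solved from fold = (pileup + 1)/(background + 1) and the Poisson tail. For all 519 peaks a whole number matched the authors' −log10 p to 0.005, and all 64 member peaks had 1 solution. No member interval had several peaks in a library; elsewhere the highest was used.

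Limma 3.58.1 (R 4.3.3, trend, two-sided) was fitted on log2(fold + 1), mean fold above 1, over all 55 intervals called in every library, and tested on simulated data. For recovery, that check required only that shifts larger than any seen at the members be found. It does not show that differences of the size seen at the members would be found. The members and lists were chosen with earlier results of these data known. The named genes are the 9 members with every interval of each. Pileups of Armc5 KO 1 and 2 differed by no more than counting error (chi-square over its degrees of freedom, 0.881). Those of Armc5 KO 1 and 3 (1.04) and of flox control 1 and Armc5 KO 1 (1.12) differed by little more. Armc5 KO 2 and 3 gave 1.45, and all were kept as separate samples. Flox control 3 stood apart from each other library (30.0 to 54.7). The only reference sequence used was that of RefSeq start windows (GRCm38.p6). The sequence, repeat content and mitochondrial matches of the intervals themselves were not analysed here.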

Additional observations from a re-analysis of the deposited data

How the results depend on the processing

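Differences of the 7 intervals called in all libraries were recomputed under 17 settings, 119 values in all. None passed adjustment (smallest limma adjusted p 0.337, Cdk8 without flox control 3), 101 kept their direction and 18 turned. Some settings could not turn a difference, since each of the 7 intervals keeps its main value in them. These were no filter on low values, the fit over 84 intervals, the lowest or mean fold of several peaks, and the replicate block. The 101 therefore overstates how steady the directions were. With the local ratio the log2 differences turned at Aida (-8.8e-06), Fbxw4 (0.029), Tmem125 (0.090) and Muc3 (0.22). With median-centred fold those at P4ha2 interval 1 (-0.011) and Filip1l (-0.013) turned. With pileup centred on the library median, a setting chosen after seeing the data like the averaging of Armc5 KO 1 and 2, Fbxw4 (0.16) and Tmem125 (0.19) turned. The causes were not tested. Leaving out each library in turn gave -0.16 to 0.32 at Aida, -0.42 to 0.42 at P4ha2 interval 1, -0.090 to 0.095 at Filip1l, -0.31 to 0.043 at Fbxw4 and -0.15 to 0.14 at Tmem125. It gave -0.39 to -0.18 at Cdk8 and at Muc3, which turned in none of these.

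Among the 55 intervals tested, the count of changed intervals was 0 to 1 when libraries were left out. The 1 was the Gm10719 interval, which is no member, without Armc5 KO 3. The count was 1, again Gm10719, with the replicate number as a block. The numbers have no stated origin. Correlations of deviations within a number were 0.0258, 0.605 and 0.276, not all over 0.1. Across different numbers they ran from -0.466 to 0.187. With 3 libraries a group these values cannot decide on pairing. As the labels state none, numbers were not taken as pairs. Left-out libraries gave 19 to 25 flox control peaks, 19 to 22 Armc5 KO peaks, 10 to 12 intervals in both groups and 0 to 4 in flox controls only. A −log10 q of at least 5 left 31 and 28 peaks, and a fold of at least 5 left all 64. Pileups of 6 to 12 fragments limit Muc3 and Tmem267 interval 1.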
